A study of Homo sapiens with 6 samples.

Results

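The E2F transcription factors and their DP partners comprised 10 genes, E2F1 to E2F8, TFDP1 and TFDP2, which were taken by name from the 38557 gene symbols of the deposited count and TPM tables. All 10 were present. They were followed in T-24, an established human bladder cancer line of epithelial origin, after 48 h with 1 µM CCT068127 (3 libraries) or with the vehicle DMSO alone (3 libraries). The untreated genotype is labelled WT, and the genotype label of the treated samples reads 'CCT068127 treated' in place of a genotype. Both arms were taken as the same line, which stands for 1 tumour only. CCT068127 is known as an inhibitor of CDK2 and CDK9. The epithelial keratin genes KRT7, KRT8 and KRT18 averaged 1369, 700.5 and 731 CPM (reads of a gene scaled to library size) in DMSO and 2513, 2417 and 986 CPM under CCT068127, while the urothelial uroplakin genes UPK2 and UPK3A stood at 0.341 and 0.107 CPM in DMSO and the epithelial cadherin gene CDH1 at 0.263 CPM. The summed level of the 11 epithelial and urothelial markers ranged from 2780 to 3599 CPM in the DMSO libraries and from 5466 to 7203 CPM in the treated ones. Within that list the urothelial factor gene GATA3 went the other way and averaged 123 CPM in DMSO and 26.6 CPM under CCT068127. EPCAM (3.54 and 3.15 CPM), CDH1 (0.263 and 0.0789 CPM) and UPK3A (0.107 and 0 CPM) also averaged lower under CCT068127, all at low levels. The remaining markers of the list averaged higher. Of 7 fibroblast markers, whose summed level was 30.8 to 40.0 CPM in the DMSO libraries and 7.34 to 9.58 CPM in the treated ones, DCN and LUM were at 0 in every library and most of the sum was PDGFRB.

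E2F proteins bind the promoters of genes that a cell needs to enter and pass S phase. E2F1, E2F2 and E2F3 are the activators, which the retinoblastoma protein holds in check until cyclin-dependent kinases phosphorylate it. E2F4 and E2F5 work mainly as repressors with the pocket proteins p107 and p130, and E2F6 represses without a pocket protein, through Polycomb proteins. E2F1 to E2F6 bind DNA as dimers with a DP protein, encoded by TFDP1 or TFDP2. E2F7 and E2F8 are atypical, since they carry a duplicated DNA-binding domain, need no DP partner and repress E2F targets in a feedback loop. Several E2F genes are themselves E2F targets, and gain of E2F3 is a known event in bladder cancer.

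Library totals ranged from 1966742 to 411097626 counts. DMSO replicates 1 and 2 held 371044040 and 411097626 counts, and the other 4 libraries held 5955296 or fewer, so the deep libraries were all controls. Values of members with those libraries thinned to the total of DMSO replicate 3 are given where they bear on a result. RNA came from whole cultures, so a change in the share of cells at a stage of the cell cycle and a change in RNA per cell cannot be told apart.

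The promoter sequences of the members are shown first because several members hold strings that match the E2F site ahead of their own starts. The RefSeq table (GRCh38.p14) held promoters for 8 of the 10 members, all but E2F5 and E2F8. Each window ran from 250 bases before the start to 50 after it and was searched on both strands for TTTGGCGC, TTTGCCGC, TTTCGCGC and TTTCCCGC, spellings of the E2F site. E2F1, E2F2, E2F3 and TFDP1 held a match and E2F4, E2F6, E2F7 and TFDP2 held none, which is 4 of 8 members against 1090 of all 27305 genes with a promoter in the table (3.99%). The last 130 bases before the start are printed 5′ to 3′ on the gene's strand for the members with a match and for E2F4, with matches in capitals. They lie at chr20:33686386-33686515 (E2F1, minus strand), chr1:23531234-23531363 (E2F2, minus strand), chr6:20401749-20401878 (the upstream of the 2 starts of E2F3, plus strand), chr13:113584623-113584752 (TFDP1, plus strand) and chr16:67192025-67192154 (E2F4, plus strand).
E2F1: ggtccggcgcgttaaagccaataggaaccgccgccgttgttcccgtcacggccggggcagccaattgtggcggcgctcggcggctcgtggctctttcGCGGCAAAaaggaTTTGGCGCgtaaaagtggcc
E2F2: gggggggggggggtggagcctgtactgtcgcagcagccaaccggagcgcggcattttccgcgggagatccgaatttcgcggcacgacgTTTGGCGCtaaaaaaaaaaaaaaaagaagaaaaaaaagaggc
E2F3: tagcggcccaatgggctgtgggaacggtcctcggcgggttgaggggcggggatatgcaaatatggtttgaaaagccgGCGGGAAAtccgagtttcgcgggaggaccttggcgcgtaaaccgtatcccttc
TFDP1: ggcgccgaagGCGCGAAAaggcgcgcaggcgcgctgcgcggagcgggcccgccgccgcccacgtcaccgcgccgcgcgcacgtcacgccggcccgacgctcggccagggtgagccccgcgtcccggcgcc
E2F4: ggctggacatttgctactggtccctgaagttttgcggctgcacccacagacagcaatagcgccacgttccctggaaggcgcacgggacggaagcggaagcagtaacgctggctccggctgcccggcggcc

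E2F1 held 2 matches, which began 33 and 20 bases before the start. The match of E2F2 began 42, that of E2F3 53 and that of TFDP1 120 bases before the start. The downstream start of E2F3 had no match in its window. A match is a string of letters and was not tested for binding here.

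In DMSO the family was led by TFDP1 and E2F4, and under CCT068127 E2F1 moved above E2F4. TPM, which corrects for transcript length, was used to rank the genes. In DMSO, TFDP1 stood at 76.8 ± 1.75 TPM and E2F4 at 73.9 ± 2.6 TPM (SD, n = 3), with overlapping libraries. E2F5 (14.9 TPM), TFDP2 (13.6 TPM), E2F6 (13.4 TPM), E2F1 (11.8 TPM), E2F7 (11.2 TPM) and E2F3 (10.9 TPM) formed a middle group whose order changed between libraries, and E2F8 (1.22 TPM) and E2F2 (0.533 TPM) were the lowest. Under CCT068127, TFDP1 stood at 138 ± 13.9 TPM, E2F1 at 57.1 ± 7.46 TPM and E2F4 at 43.8 ± 4.59 TPM. E2F1 was the next highest after TFDP1 in each of the 3 treated libraries. E2F7 followed at 15.1 TPM, then E2F3 (9.91 TPM), TFDP2 (9.53 TPM), E2F6 (8.3 TPM), E2F5 (4.78 TPM), E2F2 (3.68 TPM) and E2F8 (2.83 TPM). The places of E2F3, TFDP2 and E2F6, and those of E2F2 and E2F8, again changed between libraries.

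**Figure D1:**
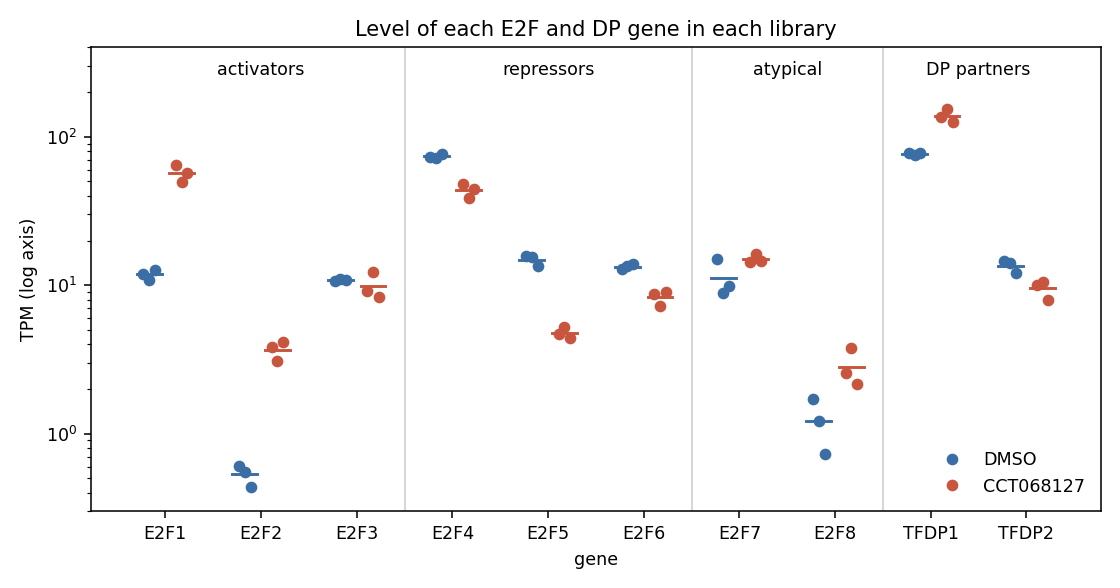
TPM on a log axis for each member, with 1 point per library and a line at the mean of 3 libraries (blue, DMSO; red, CCT068127). E2F1, E2F2, E2F8 and TFDP1 lie wholly higher and E2F4, E2F5, E2F6 and TFDP2 wholly lower under CCT068127, while the groups overlap for E2F3 and E2F7.

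Of the 10 members, 6 rose and 1 fell at an adjusted p under 0.05 (edgeR, TMM scaling), and 3 did not pass. Over all 13597 genes tested 31.9% were higher, 32.8% lower and 64.7% either, so the share of members called in either direction is near that background. On CPM values the groups did not overlap for any of the 10 members, a pattern that 69.4% of all genes tested showed. Activators, atypical members and TFDP1 rose, and E2F5 fell, but fits on TPM did not call E2F3 or E2F7. All 10 passed the filter on low counts, but E2F2 passed it through the treated libraries alone, so a gene like it could enter the test only by being higher under treatment.

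E2F1 (chromosome 20, 33675683 to 33686404, GRCh38), the activator best known for driving S-phase entry and, when in excess, apoptosis, had 14.9, 13.8 and 15.8 CPM in DMSO replicates 1 to 3. It had 116, 86.3 and 99.9 CPM in CCT068127 replicates 1 to 3. The lowest treated library lay far above the highest control. The log2 fold change was 2.80 ± 0.13 (SE; edgeR adjusted p = 7.35e-08), a 6.96-fold rise, and 4.49% of all genes tested had a larger one. With the deep libraries thinned it was 2.77.

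E2F2 (chromosome 1, 23506430 to 23531220), a close relative of E2F1, had 1.28, 1.12 and 0.896 CPM in the DMSO libraries. It had 11.2, 10.3 and 11.6 CPM in the treated libraries. These rest on 6 counts in DMSO replicate 3 (exact Poisson 95% interval 2.20 to 13.1 counts) and on 18 counts in CCT068127 replicate 2 (interval 10.7 to 28.4 counts), intervals that cover counting error only. The log2 fold change was 3.25 ± 0.22 (edgeR adjusted p = 5.87e-07). The smallest value was 1.61 on log2(TPM + 1), a scale that compresses low genes.

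E2F3 (chromosome 6, 20401906 to 20493715) moved far less than the other activators. It had 23.6, 24.6 and 23.6 CPM in the DMSO libraries and 30.8, 38.8 and 27.5 CPM in the treated ones, where replicate 2, the shallowest library, was the highest. The log2 fold change was 0.39 ± 0.13 (edgeR adjusted p = 0.0223), but by library totals E2F3 reached just 0.08 (adjusted p = 0.582), and on the log2(TPM + 1) scale it turned to -0.14 (adjusted p = 0.449). Omitting any single library except CCT068127 replicate 3 also ended the E2F3 call, at adjusted p values between 0.0530 and 0.0762, and omitting CCT068127 replicate 2 lowered the difference to 0.26.

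Among the repressors only E2F5 passed the test. E2F5 (chromosome 8, 85177225 to 85217158), a partner of p130, had 14.2, 14.1 and 12.1 CPM in the DMSO libraries and 5.5, 5.71 and 5.44 CPM in the treated ones. The treated libraries lay close together and all below the controls, and CCT068127 replicate 2 held 10 counts (exact Poisson 95% interval 4.8 to 18.4 counts). It fell by 1.31 on the log2 scale (SE 0.18; edgeR adjusted p = 8.29e-05), and 7.92% of all genes tested had a lower fold change. E2F5 shares 969 exon bases with RBIS, a ribosome biogenesis gene on the opposite strand, and no source used here gives the strandedness of the counts, so reads of the pair cannot be told apart. RBIS itself had 30.1 CPM in DMSO and 26.1 CPM under CCT068127 (log2 fold change -0.22 ± 0.12, adjusted p = 0.134).

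E2F4 (chromosome 16, 67192169 to 67198918), the main E2F of resting cells and of the DREAM repressor complex, had 70.8, 71.4 and 74.4 CPM in the DMSO libraries and 67.7, 52.6 and 61.1 CPM in the treated ones. The groups did not overlap, but the difference of -0.23 ± 0.11 on the log2 scale did not pass (edgeR adjusted p = 0.0823). E2F4 passed as lower when CCT068127 replicate 1 was omitted (-0.35, adjusted p = 0.0167), by library totals (-0.55, adjusted p = 0.00115), in TPM on the log2(TPM + 1) scale (-0.75, adjusted p = 0.000477) and when no low-count filter was used (-0.48, adjusted p = 0.00595). E2F6 (chromosome 2, 11444375 to 11466177) had 19.4, 20.8 and 20.9 CPM in the DMSO libraries and 18.7, 14.9 and 18.2 CPM in the treated ones. Its log2 fold change of -0.20 ± 0.13 did not pass (edgeR adjusted p = 0.208), and by library totals E2F6 stood at -0.51 (adjusted p = 0.00522). It also passed as lower on the log2(TPM + 1) scale (-0.63, adjusted p = 0.00269) and when no low-count filter was used (-0.45, adjusted p = 0.0425). For both genes CCT068127 replicate 2 was the lowest library.

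Both atypical members rose. E2F7 (chromosome 12, 77021247 to 77065580) had 40.5, 24.1 and 26.7 CPM in the DMSO libraries and 54.0, 60.0 and 54.4 CPM in the treated ones. DMSO replicate 1 stood apart from the other controls, and the treated libraries were close to each other. The log2 fold change was 0.85 ± 0.19 (edgeR adjusted p = 0.00276), 1.12 without DMSO replicate 1 and 0.67 without DMSO replicate 2. In TPM, on the log2(TPM + 1) scale, E2F7 missed the threshold at 0.42 (adjusted p = 0.0791).

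E2F8 (chromosome 11, 19224063 to 19241620), which acts together with E2F7, had 2.88, 2.07 and 1.19 CPM in the DMSO libraries and 6.11, 8.57 and 4.97 CPM in the treated ones. DMSO replicate 1 was again the highest control, though below every treated library. DMSO replicate 3 held 8 counts (exact Poisson 95% interval 3.45 to 15.8 counts) and CCT068127 replicate 2 held 15 (interval 8.4 to 24.7). The log2 fold change was 1.44 ± 0.32 (edgeR adjusted p = 0.00247), with values from 0.79 on log2(TPM + 1) to 1.77 after thinning of the deep libraries. Against DMSO replicate 3 alone E2F8 stood at 2.33, an effect size with no test.

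The DP genes parted. TFDP1 (chromosome 13, 113584721 to 113641470), which encodes DP1, had 93.9, 92.1 and 91.5 CPM in the DMSO libraries and 236, 256 and 213 CPM in the treated ones. The controls lay close together and every treated library was far above them. It rose by 1.34 ± 0.10 on the log2 scale (edgeR adjusted p = 1.15e-06), or 2.53-fold, and by 0.83 on log2(TPM + 1) values. TFDP2 (chromosome 3, 141944428 to 142149544), which encodes DP2, had 33.8, 38.4 and 35.4 CPM in the DMSO libraries and 33.4, 33.7 and 26.5 CPM in the treated ones, so the highest treated library nearly met the lowest control. Its log2 fold change of -0.22 ± 0.13 did not pass (edgeR adjusted p = 0.161), was -0.11 without CCT068127 replicate 3, and passed as lower with library totals (-0.53, adjusted p = 0.00311). TFDP2 also passed as lower on the log2(TPM + 1) scale (-0.47, adjusted p = 0.0184) and when no low-count filter was used (-0.46, adjusted p = 0.0156). The gene for a further DP protein, TFDP3, had 1 count over all 6 libraries.

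**Figure D2:**
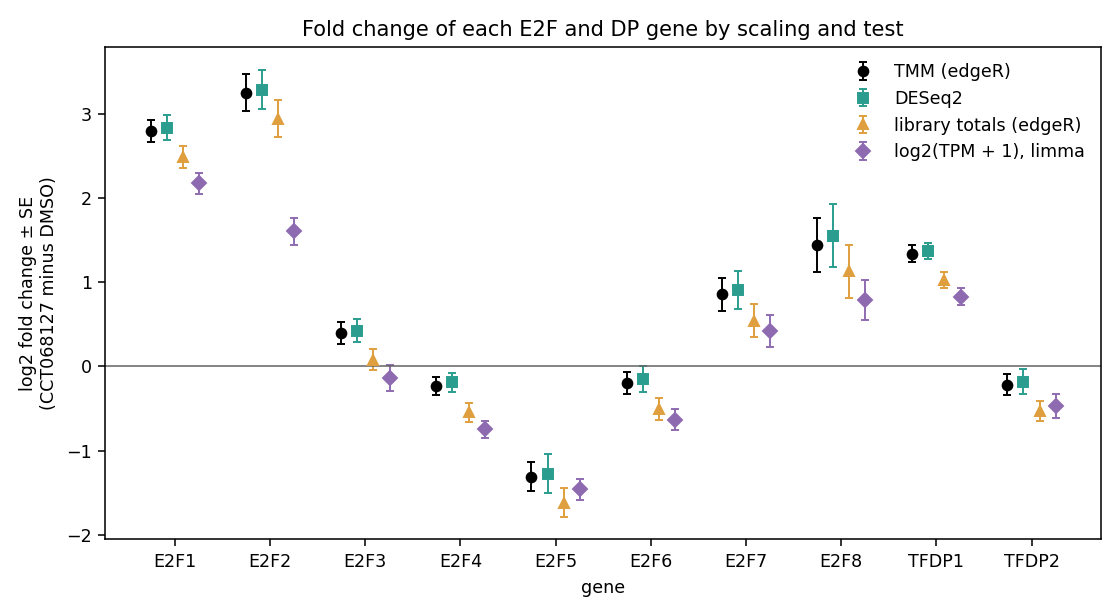
Log2 fold change (CCT068127 minus DMSO) with its SE for each member, by TMM scaling in edgeR (circles), DESeq2 (squares), library totals in edgeR (triangles) and limma on log2(TPM + 1) (diamonds). E2F1, E2F2, E2F7, E2F8 and TFDP1 stay above 0 and E2F4, E2F5, E2F6 and TFDP2 below 0 on all 4 scales, while E2F3 crosses from 0.39 to -0.14.

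Small differences among the members depended on where the zero line was set. The median log2 fold change over all genes tested was -0.05 with TMM, -0.36 with library totals and -0.46 on log2(TPM + 1) values, and the split of all calls moved from 4333 higher and 4460 lower to 3006 and 6567 with library totals. In percent of all genes tested, 22.1% were then higher and 48.3% lower, and 17.2% and 51.9% on log2(TPM + 1) values, which is the background for the counts on those scales. Relative to that median, E2F3 stood at 0.44, 0.44 and 0.32 on the 3 scales, E2F4 at -0.18, -0.19 and -0.28, and TFDP2 at -0.17, -0.17 and -0.01. These positions moved when no filter on low values was used, with E2F3 at -0.10 and E2F4 at -0.70 on unfiltered log2(TPM + 1) values, and E2F4 at 0.02 and TFDP2 at 0.03 in unfiltered counts. E2F1, E2F2, E2F5, E2F8 and TFDP1 kept their direction and their call in all 17 alternative fits with a test. These fits reuse the same libraries and are no independent support. E2F2 also entered the filtered ones through the treated libraries alone.

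Ratios of members within a library do not depend on library scaling. The TPM ratio of E2F1 to E2F4 took the values 0.164, 0.150 and 0.165 among DMSO libraries, against 1.34, 1.27 and 1.28 among treated ones. That of TFDP1 to TFDP2 was 5.39, 5.34 and 6.37 against 13.4, 14.5 and 15.7. The summed activators were 0.227 ± 0.00496 times the summed repressors in DMSO and 1.24 ± 0.0361 times under CCT068127 (SD, n = 3). The groups lay far apart in each of these ratios, which are descriptions of chosen genes and carry no test.

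By role, activators made up 10.2% ± 0.3 of the summed TPM of the 10 members in DMSO and 24.2% ± 2.18 under CCT068127 (SD, n = 3). Repressors went from 44.8% ± 1.3 to 19.5% ± 2.05 and DP partners from 39.6% ± 0.42 to 50.2% ± 3.71. The atypical share was 5.44% ± 1.48 and 6.11% ± 0.52, within the spread of the controls. The sum over the 8 E2F genes was 138 ± 4.2 TPM in DMSO and 145 ± 9.78 TPM under CCT068127, but in CPM the same sum went from 178 ± 8.16 to 290.2 ± 17.8 (SD, n = 3), so whether the E2F total moved depended on the unit. Activators made up more and repressors less of the 10 members in both units. The activator sum grew mainly through E2F1 (11.8 to 57.1 TPM), with E2F2 at 0.533 and 3.68 TPM, while E2F3 went from 10.9 to 9.91 TPM. The repressor sum was mostly E2F4 (73.9 to 43.8 TPM), which did not pass in the main fit on counts (edgeR adjusted p = 0.0823). E2F5 and E2F6 also averaged lower in TPM. A change in the share of a role is thus not a change of each member.

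**Figure D3:**
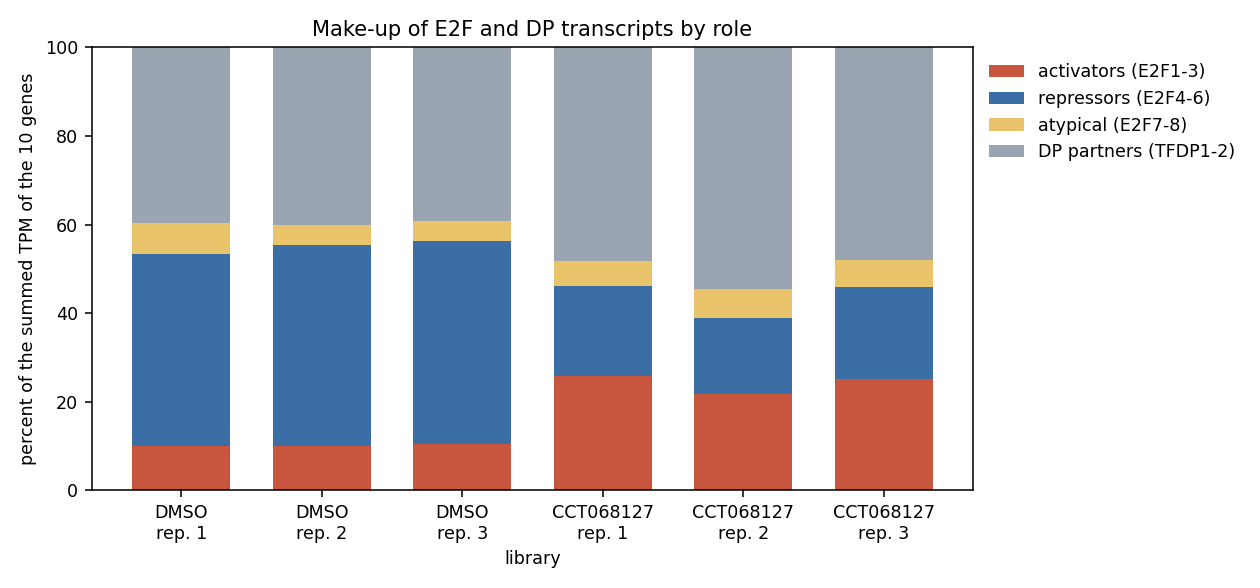
Stacked bars of the percent of the summed TPM of the 10 members held by activators, repressors, atypical members and DP partners in each library. The activator part is near 10.2% in the DMSO libraries and 24.2% on average in the treated ones, and the repressor part shrinks from 44.8% to 19.5%.

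The genes around the family were read from 8 lists. Of 47 G1/S target genes of E2F, 46 rose and 0 fell, with a median log2 fold change of 1.73 beside -0.05 over all genes tested, of which 31.9% were higher. FEN1, the nuclease that trims Okazaki fragments, went from 29.4 ± 4.76 to 238 ± 13.5 CPM (SD, n = 3). The gene of the replication clamp, PCNA, rose by 2.09 on the log2 scale. BRCA2, a homologous recombination gene, did not pass (0.95 ± 0.50, edgeR adjusted p = 0.12). Scaling by library totals left 43 higher and log2(TPM + 1) values 42, with 0 lower in both. Many of these genes were already known to be higher in these libraries when the list was written, so the count is no independent support. Of 40 list members with a promoter in the table, 22 held an E2F match, beside the 3.99% of all genes with a promoter.

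Pocket proteins and the DREAM complex, which hold E2F4 and E2F5 at target promoters, had 5 of 10 genes higher and 1 lower. Among all genes tested 31.9% were higher, 32.8% lower and 64.7% either, so the share called in either direction is near that background. RBL1, which encodes p107, rose by 0.99, and RBL2, which encodes p130, fell by 0.61 on the log2 scale. LIN52, a core MuvB subunit, rose by 0.84, a call that was lost in TPM (0.18 for log2(TPM + 1), adjusted p = 0.197), and MYBL2, the MuvB partner that replaces the pocket proteins in cycling cells, rose by 1.97. RB1 stood at 70.0 CPM in DMSO and 67.7 CPM under CCT068127 (-0.08 ± 0.14, edgeR adjusted p = 0.628). The median of these genes, 0.39, was -0.18 in TPM (log2(TPM + 1)), with 2 genes higher and 3 lower, and library totals gave 3 higher and 3 lower. All genes tested were 17.2% higher and 51.9% lower on log2(TPM + 1) values, and 22.1% and 48.3% by library totals. A count of 3 risen genes resulted when either CCT068127 replicate 2, CCT068127 replicate 3 or DMSO replicate 2 was omitted.

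Of 12 tested kinases, cyclins and inhibitors that set the phosphorylation of the retinoblastoma protein, 8 rose and 2 fell, with a median of 0.48. Among all genes tested 31.9% were higher and 32.8% lower. The median became -0.02 in TPM (log2(TPM + 1)), where 4 were higher and 4 lower, beside 17.2% and 51.9% of all genes tested. CDKN1C (p57) rose by 4.32, CCND3 (cyclin D3) by 1.61 and CDKN2D (p19) by 2.07, while CDKN1B (p27) fell by 1.76 on the log2 scale. Library totals gave 4 higher and 3 lower, beside 22.1% and 48.3% of all genes tested.

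E2F6 works within a variant Polycomb complex, and of 14 genes for its partners 2 rose and 3 fell (median -0.07). Among all genes tested 31.9% were higher and 32.8% lower. RING1, a ubiquitin ligase of Polycomb, fell by 1.68, L3MBTL2 by 0.66 and the histone methyltransferase gene EHMT1 by 0.50 on the log2 scale, and HDAC1 rose by 0.68, a call that TPM did not give (0.19 for log2(TPM + 1), adjusted p = 0.128). With library totals 1 rose and 8 fell (median -0.39), on log2(TPM + 1) values 0 rose and 9 fell, and without CCT068127 replicate 1 4 rose. All genes tested had medians of -0.36 and -0.46 on these scales, with 48.3% and 51.9% lower, so those counts lie near the background. Of 13 germline genes that this complex is known to silence 0 passed the filter on low counts. Their counts in the 3 treated libraries were at most 1 per gene and library, and STAG3, the most counted of them, had 113 and 129 counts in the deep DMSO libraries and 0 in the other 4, which allows up to 1.53 CPM in the shallowest of those.

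Of 8 ubiquitin ligase genes tied to E2F turnover, 4 rose and 1 fell (median 0.46, 0.15 by library totals, where 4 rose and 2 fell, and 0.0072 in TPM on the log2(TPM + 1) scale, where 3 rose and 2 fell). Among all genes tested 31.9% were higher, 32.8% lower and 64.7% either, so the share called in either direction is near that background. All genes tested were 22.1% higher and 48.3% lower by library totals, and 17.2% and 51.9% on log2(TPM + 1) values. SKP2, a substrate receptor that binds E2F1, rose by 1.68, SKP1 by 1.48 and CDC20 by 1.10, and CUL1, the scaffold, fell by 0.65 on the log2 scale. CDC20 missed the threshold in the unfiltered log2(TPM + 1) fit (0.61, adjusted p = 0.0586). Of 13 coactivators and corepressors, 1 rose and 7 fell (median -0.57), where 32.8% of all genes tested were lower. By library totals 0 rose and 11 fell (median -0.88), where 48.3% of all genes were lower with a median of -0.36. The acetyltransferase gene EP300 fell by 0.87, the remodeller gene SMARCA2 by 0.90 and SIN3A by 0.64 on the log2 scale. SUV39H1, a histone methyltransferase gene, rose by 0.70. Its call was lost by library totals (0.39, adjusted p = 0.0818), in TPM (0.14 for log2(TPM + 1), adjusted p = 0.478), when no low-count filter was used (0.45, adjusted p = 0.0784) and when CCT068127 replicate 1 was omitted (0.53, adjusted p = 0.0584), so that 0 of the 13 rose without that library.

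Apoptosis genes that E2F1 is known to activate were mixed. Of 13 tested, 6 rose and 2 fell. Among all genes tested 31.9% were higher, 32.8% lower and 64.7% either, so the share called in either direction is near that background. The median of 0.12 turned to -0.19 with library totals, where 2 rose and 6 fell, and to -0.31 on log2(TPM + 1) values. By library totals 22.1% of all genes were higher and 48.3% lower, so the counts there lie near the background. SIVA1 rose by 2.28 on the log2 scale. PMAIP1, which encodes NOXA, rose by 0.59, and its call was lost by library totals (0.28, adjusted p = 0.0926) and in TPM (0.09 for log2(TPM + 1), adjusted p = 0.603). BBC3, which encodes PUMA, fell by 1.03 on the log2 scale.

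**Figure D4:**
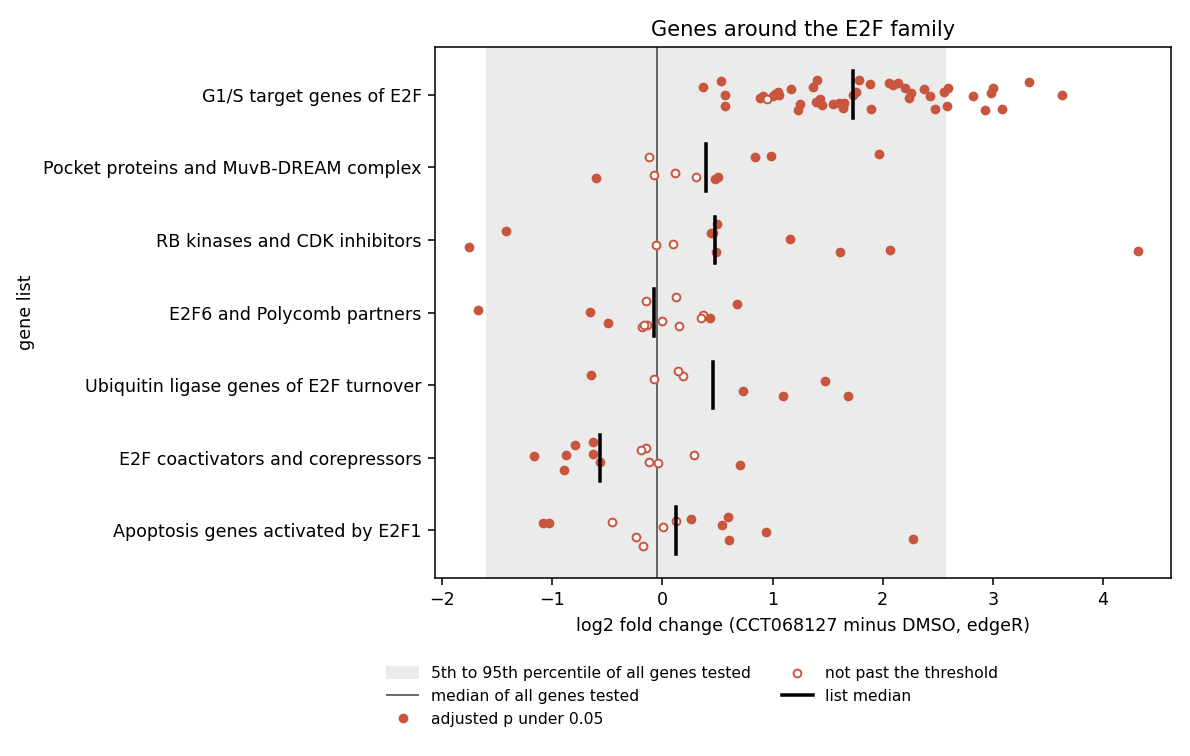
Log2 fold change (edgeR) of each tested gene by list, with filled points past an adjusted p of 0.05, open points not past it, a black bar at the list median, and the 5th to 95th percentile of all genes tested in grey (-1.60 to 2.56). The G1/S targets lie to the right of 0 with a median of 1.73, and the other lists spread on both sides.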

How the data were processed

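Poly(A) RNA of 6 T-24 cultures was sequenced on a NovaSeq after NEB Ultra II library preparation, per the labels' protocols. Whole-number estimated counts and TPM values, each by gene symbol, are what the authors deposited. The submitters' processing notes name RSEM, Bowtie and hg38, with no version, and no source used here gives the annotation. Groups and replicate numbers came from the sample titles. The series' design text calls the replicates biological and independent.

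Counts were fitted in R 4.3.3 with edgeR 4.0.16 (filterByExpr with a minimum count of 10, TMM, robust quasi-likelihood test, two-sided, Benjamini-Hochberg over all 13597 genes tested, calls under 0.05). SE values were derived from the F statistic. CPM used TMM-scaled totals. TPM alternatives used limma 3.58.1 on log2(TPM + 1) or log2(TPM + 0.1), which understates changes of low genes, and DESeq2 1.42.0 and limma-voom were further tests. The steps were tested on simulated data in which few genes were changed, in either direction. Such data do not check the scaling where many genes move, as here. At 3 counts of the total, a gene at 0 was limited to between 0.0073 and 1.53 CPM. Gene positions are from GENCODE 29 (GRCh38).

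The members and gene lists were chosen with earlier results of these data known. Named genes were all members, and from each list up to 3 called genes in the commoner direction and 1 in the other, by adjusted p, and some of these are not reported here. BRCA2, RB1, STAG3 and RBIS were chosen after their values were seen. A planned comparison of the member proteins was not made.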

Additional observations from a re-analysis of the deposited data

How the results depend on the processing

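Correlations of deviations between same-numbered libraries were 0.00999, 0.00471 and 0.00950, within the range of -0.0331 to 0.0240 between differently numbered ones. Counting error in the shallow libraries lowers such correlations, so they show no sign of a pairing but cannot exclude it. With the replicate number as a block, 6 members rose and 1 fell, as without it. The number of members that rose was 6 by TMM and 4 to 6 elsewhere, and 5 or 6 with 1 library left out. Among all genes tested 31.9% were higher by TMM and 10.9% to 33.7% elsewhere. The number that fell was 1 by TMM and 4 with library totals, without a low-count filter and in the 3 fits on TPM, and 1 to 2 with 1 library left out. Lower among all genes tested were 32.8% by TMM, 48.3% with library totals, 21.6% with no filter and 27.7% to 34.2% with 1 library left out. In the fits on TPM the lower share was 51.9% for log2(TPM + 1), 26.4% without its filter and 50.7% for log2(TPM + 0.1). E2F3 turned to -0.14 in both log2(TPM + 1) fits, filtered or not, and to -0.15 for log2(TPM + 0.1). G1/S targets higher numbered 41 to 47. Calls over all genes were 4333 higher and 4460 lower by TMM, 5519 and 6300 with no filter, 3006 and 6567 with library totals, 2474 and 7472 on log2(TPM + 1), 3039 and 7365 without its filter, and 2444 and 7299 on log2(TPM + 0.1). Shares by role from CPM in place of TPM gave activators 12.997% in DMSO and 25.9% under CCT068127, and repressors 34.6% and 14.998%. With 1 library left out the activator share was 9.996% to 10.28% and 23.4% to 25.4%, and the repressor share 44.4% to 45.55% and 18.8% to 20.7%. The counts of E2F2, E2F5 and E2F8 in the shallow libraries limit their precision.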

Other observations

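Genes whose levels over the 6 libraries lay closest to those of the member with the largest change in each role were looked up among 11329 genes of at least 5 CPM, by the Euclidean distance of log2 CPM values centred on the DMSO mean. These distances are descriptions over 6 libraries that share their scaling and depth. Counting error adds to the distances of members with few counts, such as E2F2, E2F5 and E2F8, so distances of different members cannot be ranked. TFDP1 was closest to XRCC6, which encodes the Ku70 subunit of DNA end joining (distance 0.0659), followed by TMX2 and SF3B6. XRCC6 averaged 377 ± 9.77 CPM in DMSO and 959 ± 67.9 CPM under CCT068127 (SD, n = 3). E2F5 was closest to ZNF827 (0.114), NIBAN1 (0.13) and RAB11FIP2 (0.142). E2F2 was closest to ULBP2 (0.234), MTRNR2L10 (0.239) and TNFSF4 (0.246), and E2F8 to BCL2L2-PABPN1 (0.33), DOCK10 (0.458) and SCD (0.477).

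Fold changes were also split by E2F matches in the promoter windows. Of 702 tested genes with a match, members left out, 36.6% were higher and 26.1% lower, with a median log2 fold change of 0.04. Of 9702 tested genes whose windows held no match, 31.0% were higher and 34.0% lower, with a median of -0.07.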
